A study of Arabidopsis thaliana with 28 samples.

Results

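Tau and phi glutathione transferases, named GSTU and GSTF in Arabidopsis thaliana, are the 2 most numerous classes of these enzymes in plants. The 38 loci described here, GSTU1 to GSTU28 and the 10 phi loci GSTF2, GSTF3, GSTF6 to GSTF12 and GSTF14, were taken by gene identity from a list and not by their values. Of these, 37 had a row in the expression table of 23681 loci: 27 of the 28 tau loci and all 10 phi loci. GSTU15 (AT1G59670) was not analysed here. Loci that reached a normalised read count of 10 in 2 or more samples were tested; these were 21023 loci, with 35 members (26 tau and 9 phi) among them. The other 2, GSTU21 (AT1G78360) and GSTF12 (AT5G17220), had 26 and 31 reads in all 28 libraries together and lay between 0 and 3.07 and between 0 and 4.54 normalised reads.

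Glutathione transferases join the tripeptide glutathione to electrophilic compounds, and the conjugates are carried into the vacuole by ABCC transporters. Some members act as carriers of small ligands or supply glutathione to a biosynthetic pathway instead. Several have known places of their own: GSTF6 in the synthesis of the phytoalexin camalexin, GSTF11 and GSTU20 in that of aliphatic glucosinolates, GSTF9, GSTF10 and GSTU13 in the metabolism of indole glucosinolates, and GSTF12 (TT19) in the transport of anthocyanins. GSTU24 and GSTU25 act on the explosive TNT, and GSTU17 has been linked to drought and abscisic acid (ABA) responses. Many tau and phi genes are induced by safeners, pathogens, oxidants and hormones, in part through TGA factors, which read the letters TGACG, while ABA-responsive bZIP factors read an ACGTG core.

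Messenger RNA of whole seedlings was sequenced in 28 libraries. Groups of 3 libraries each came from mock-treated plants with a constitutively active (CA) form of the ABA receptor PYL4, PYL5, PYL6 or PYR1. A further 3 groups were the aba2-1 mutant, which lacks an enzyme of ABA synthesis, given mock, 10 nM ABA or 50 nM ABA for 3 h (3 libraries each), and the last 3 were wild-type Col-0 given mock (2 libraries), 10 nM ABA (2) or 50 nM ABA (3). The age label reads 10 days after germination while the growth protocol gives 7 days on plates, and the label T3 stands on every sample. The labels give no promoter for the CA forms, no genetic background and no number of insertion events or clones, so each CA line was set against both aba2-1 mock and Col-0 mock. Whether a group's libraries are separate cultures is not given in the labels, and the p-values therefore rest on the spread from library to library, which may be technical. In whole seedlings, more RNA per cell and more cells that express a gene cannot be told apart.

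Libraries held 11.99 to 30.94 M reads. The summed reads of a receptor's locus and its CA transcript were above those of both mock groups in the PYL4, PYL5 and PYL6 CA lines (for PYL5, 12160 to 19709 normalised reads in PYL5 CA, 2593 to 3453 in aba2-1 mock and 3143 to 3400 in Col-0 mock). In the libraries labelled PYR1 CA the same sum for PYR1 was 710.1 to 1186, below the 2332 to 2677 of aba2-1 mock and the 2921 to 3424 of Col-0 mock, which for this sum goes against the label, so every direction given for them is for libraries so labelled. Rows without a locus, among them those of the CA transcripts, took 0.064% to 0.102% of the reads of these libraries. In the Col-0 and aba2-1 libraries such rows took 0.002% to 0.015%. Because the sum for PYR1 includes the row of its CA transcript, that row held at most 1186 normalised reads in these libraries. The value of that row alone is not given here, nor which rows without a locus took the reads above. Libraries of most groups lay close together (the median gene's standard deviation, SD, was 0.08 to 0.17 on the log2 scale), with more spread among those of PYL5 CA (0.30) and of the mutant at 50 nM ABA (0.33). A ribosomal RNA row took 35.1% of the reads of replicate 3 of the mutant at 10 nM ABA. A single read of that library stood for 4.41 normalised reads, against 1.14 in replicate 1 and 1.185 in replicate 2. Its low values are therefore coarse: those of GSTF11 (22.1) and GSTF14 (61.8) rest on 5 and 14 reads. That library, aba2-1 50 nM ABA replicate 2 and PYL5 CA replicate 2 stood apart from their groups, and the counts of members in the comparisons that use them are also given without them. The median gene's absolute deviation from its group mean (log2) was 0.137, 0.306 and 0.252 in these libraries. Another library of each group came near: 0.119 in aba2-1 10 nM ABA replicate 2, 0.261 in aba2-1 50 nM ABA replicate 3 and 0.227 in PYL5 CA replicate 3. All 14 root and 9 green shoot markers checked were present in every group, as whole seedlings would have.

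Most members lie in tandem groups, with the next member within 20 kb (coordinates of the RefSeq TAIR10.1 annotation). GSTU1 to GSTU7 form a run of 7 genes on chromosome 2 (12617936 to 12632538), and GSTU19 to GSTU23 a run of 5 on chromosome 1 (29467412 to 29488007). GSTU24 to GSTU26 are a run of 3, and GSTU11 and GSTU12, GSTU13 and GSTU14, GSTU15 and GSTU16, GSTU17 and GSTU18, GSTF6 and GSTF7, and GSTF9 and GSTF10 are neighbouring pairs. The annotated GSTU17 and GSTU18 genes overlap on the same strand, and the coding sequences of GSTF6 and GSTF7 are 94.3% identical, as are 94.5% of those of GSTF2 and GSTF3, which lie on different chromosomes. How reads that fit both copies were assigned is not given in the sources used here, so the split between these partners is uncertain.

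The 300 bases upstream of the annotated start were searched for ACGTG and TGACG on both strands, and overlapping matches were each counted. ACGTG stood in the windows of 14 of the 37 members (37.8%) and TGACG in those of 17 (45.9%). Windows of the same length were searched for the annotated protein-coding loci with a row in the expression table. Of these 22339 windows, 26.8% held ACGTG and 22.0% held TGACG. The windows below, from the RefSeq TAIR10.1 genome, belong to members whose values differed most between groups and whose window held no other gene. They run 5′ to 3′ on the strand of the gene and end at the base before its start, with ACGTG and TGACG, or their reverse complements CACGT and CGTCA, in capitals. A match is a string of letters in this window and is not a measured binding site.
GSTU11, chr1:26338819-26339118, minus strand: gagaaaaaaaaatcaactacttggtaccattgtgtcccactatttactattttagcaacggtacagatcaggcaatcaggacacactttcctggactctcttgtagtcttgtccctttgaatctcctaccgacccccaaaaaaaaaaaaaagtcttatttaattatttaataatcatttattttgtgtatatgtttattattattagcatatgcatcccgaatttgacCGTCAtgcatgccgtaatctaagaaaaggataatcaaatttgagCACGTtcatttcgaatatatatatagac
GSTU17, chr1:3398359-3398658, minus strand: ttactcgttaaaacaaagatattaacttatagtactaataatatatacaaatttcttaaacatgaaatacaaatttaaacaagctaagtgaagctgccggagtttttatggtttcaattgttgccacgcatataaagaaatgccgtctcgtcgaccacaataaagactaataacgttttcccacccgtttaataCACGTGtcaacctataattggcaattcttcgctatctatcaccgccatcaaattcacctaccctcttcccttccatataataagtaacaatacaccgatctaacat
GSTU3, chr2:12629641-12629940, minus strand: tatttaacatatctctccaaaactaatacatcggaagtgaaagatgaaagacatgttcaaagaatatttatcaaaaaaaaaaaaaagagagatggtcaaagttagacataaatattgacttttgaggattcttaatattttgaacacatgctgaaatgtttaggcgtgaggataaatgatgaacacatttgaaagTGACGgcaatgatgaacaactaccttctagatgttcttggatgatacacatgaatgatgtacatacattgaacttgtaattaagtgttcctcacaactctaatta
GSTU4, chr2:12627892-12628191, minus strand: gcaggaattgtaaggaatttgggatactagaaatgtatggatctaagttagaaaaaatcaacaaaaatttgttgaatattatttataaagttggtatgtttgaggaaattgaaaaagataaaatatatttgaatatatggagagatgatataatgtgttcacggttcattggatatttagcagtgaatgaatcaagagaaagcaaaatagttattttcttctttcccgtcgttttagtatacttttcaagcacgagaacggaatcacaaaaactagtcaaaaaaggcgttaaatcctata
GSTF7, chr1:659981-660280, minus strand: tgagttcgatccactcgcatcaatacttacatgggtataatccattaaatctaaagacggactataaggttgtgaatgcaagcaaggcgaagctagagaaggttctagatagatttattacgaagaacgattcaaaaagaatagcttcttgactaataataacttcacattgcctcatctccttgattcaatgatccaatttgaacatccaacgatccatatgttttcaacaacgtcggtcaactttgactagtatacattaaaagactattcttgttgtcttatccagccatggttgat
GSTF14, chr1:18458226-18458525, plus strand: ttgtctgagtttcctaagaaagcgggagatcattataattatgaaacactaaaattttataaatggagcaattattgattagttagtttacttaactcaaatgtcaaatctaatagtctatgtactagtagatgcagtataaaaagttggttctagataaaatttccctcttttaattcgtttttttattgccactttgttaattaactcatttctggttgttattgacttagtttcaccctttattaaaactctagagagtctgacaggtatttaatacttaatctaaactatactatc

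GSTU11 holds a match to each string, GSTU3 a single TGACG, and GSTU17 the palindrome CACGTG, which counts as 2 matches because it reads ACGTG on either strand. GSTU4, GSTF7 and GSTF14 hold neither string in this window.

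Levels were compared between members as normalised reads per kilobase of transcript. GSTU19, an abundant tau enzyme, was highest in aba2-1 mock (15237 reads per kb, 18.8% of the family total) and in Col-0 mock (10993 reads per kb, 17.2%). GSTF2, GSTF10, GSTF9, GSTF8 and GSTF6 followed in both groups, with 5876 to 11409 reads per kb in aba2-1 mock and 4859 to 10382 in Col-0 mock. GSTF2 binds small ligands such as camalexin, GSTF8 is a stress-inducible gene, and GSTF6 and GSTF10 were first found as the dehydration-responsive genes ERD11 and ERD13. At the low end of the tested members stood GSTU3, with 15.8 reads per kb in aba2-1 mock and 3.57 in Col-0 mock, and GSTU12, with 19.2 and 19.8. Among tau genes the spread of levels was thus wide even within a tandem run: GSTU7, in the same run of 7 as GSTU3, had 2998 reads per kb in aba2-1 mock and 1878 in Col-0 mock.

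**Figure D1:**
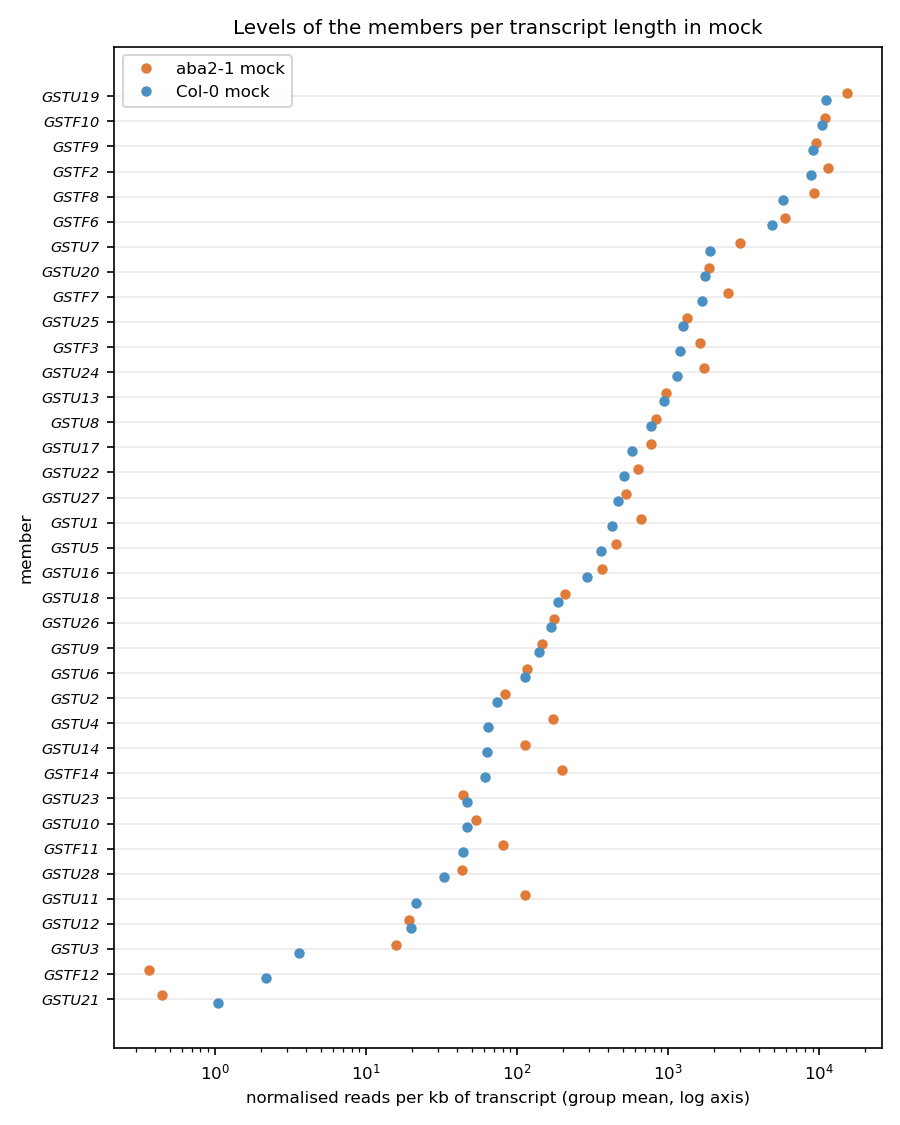
Levels of the members as normalised reads per kilobase of transcript on a log axis, in aba2-1 mock and Col-0 mock. GSTU19 stands at the top in both groups (15237 and 10993 reads per kb), and GSTU21 and GSTF12 lie at or below 2.18.

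Differences below are on the log2 scale of the normalised count plus 1, and folds are taken from them, so that folds of genes at low counts come out too small. Across the 14 pairwise comparisons of groups, 24 of the 35 tested members passed the test at least once (limma on log2 of the normalised count plus 1, Benjamini-Hochberg adjusted p under 0.05 over all 21023 loci), 17 tau and 7 phi, where 30% of all loci did. Among all 10 groups, the F test called 24 members, 18 tau and 6 phi, where it called 22.6% of all loci. Without the 3 libraries that stood apart it called 26 members, where it called 41% of all loci. GSTU5 was called in 7 pairwise comparisons and GSTF14 in 6. The lowest group mean was that of Col-0 mock for 13 members and that of aba2-1 50 nM ABA for 10. Lowest groups were not counted over all loci, so these counts are not a result about the members. Comparisons that use Col-0 mock share its 2 libraries and those that use aba2-1 mock share its 3.

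**Figure D2:**
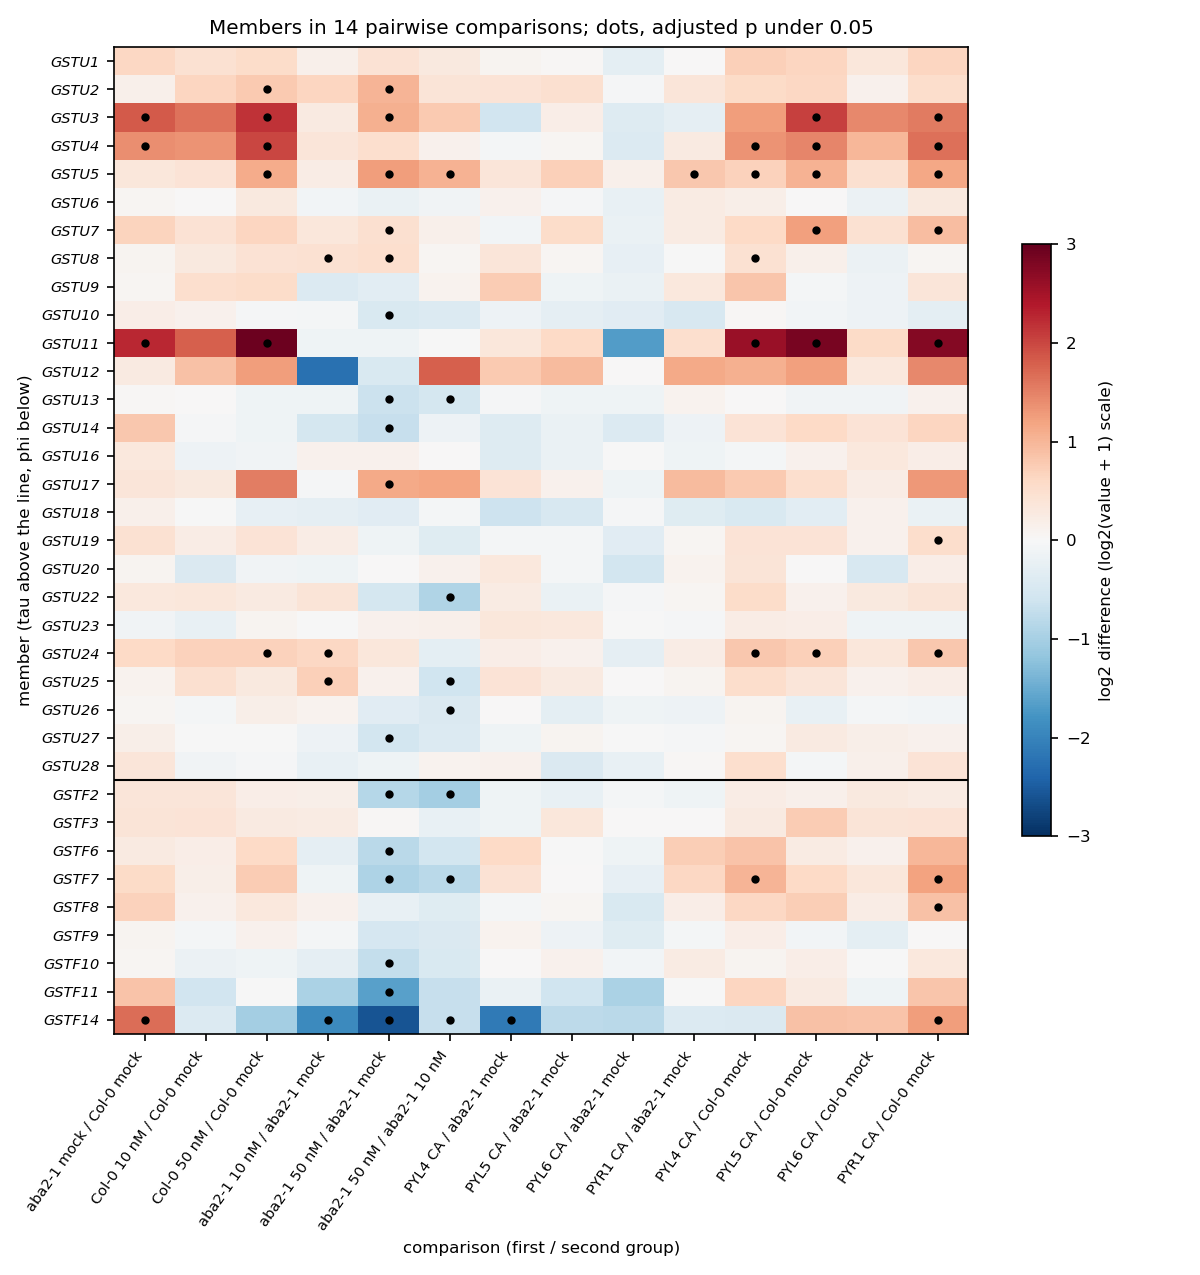
Log2 differences of the 35 tested members (rows, tau above the line and phi below) in the 14 pairwise comparisons (columns, first group over second), in red where the first group was higher and in blue where it was lower, with colours saturating at 3 in either direction. Dots mark calls at adjusted p under 0.05; the column of aba2-1 50 nM ABA over aba2-1 mock holds the most of them, 16.

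In the ABA-deficient mutant without added hormone, some tau and phi transcripts were higher than in the wild type, and none passed the test as lower. Of the 35 members, 4 rose in aba2-1 mock over Col-0 mock (11.4%, against 0.59% of all loci called and 0.309% called higher): GSTU3, GSTU4, GSTU11 and GSTF14. The members' median difference was 0.32 (log2), with 34 of 35 above 0, against a median of 0 over all loci. The summed root markers were 10495 to 11964 in aba2-1 mock, against 9731 to 10133 in Col-0 mock, with no overlap, and their part in these differences was not tested.

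GSTU11 had 150.5, 154 and 63.5 normalised reads in aba2-1 mock, against 20.3 and 26.4 in Col-0 mock. GSTF14, a phi member, had 241, 249.8 and 209.9 in aba2-1 mock, against 74.4 and 69.8 in Col-0 mock. For both genes every mutant library lay above every wild-type library, and for GSTF14 the values within a group were close together. The log2 differences were 2.25 for GSTU11 (standard error, SE, 0.51, adjusted p = 0.036) and 1.68 for GSTF14 (SE 0.26, adjusted p = 0.00087). GSTU4, of the chromosome 2 run, had 248, 200.3 and 161 in aba2-1 mock, against 70.5 and 80.2 in Col-0 mock (log2 difference 1.40, SE 0.26, adjusted p = 0.0066). GSTU3, its neighbour, had 17.6, 24.1 and 9.07, against 4.83 and 2.83 (1.83, SE 0.40, adjusted p = 0.027), so its wild-type values rest on few reads. The groups did not overlap for these genes either. The GSTF14 call held in all 5 fits that left out a library. Those of GSTU3, GSTU4 and GSTU11 were lost without Col-0 mock replicate 1 or replicate 2 (adjusted p up to 0.45, 0.21 and 0.54), and those of GSTU3 and GSTU11 also without aba2-1 mock replicate 1 or replicate 2. By edgeR the calls of GSTU3 and GSTU11 were lost (adjusted p = 0.062 and 0.097).

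In the wild type, 50 nM ABA raised a set of tau genes, most of them from the run of 7 on chromosome 2. In Col-0 50 nM ABA against Col-0 mock 6 members rose and none fell (17.1%, against 1.01% of all loci called and 0.79% called higher): GSTU2, GSTU3, GSTU4, GSTU5, GSTU11 and GSTU24. No phi member passed the limma test, and the median difference was 0.36 (log2) for tau and 0.20 for phi members, against −0.01 over all loci. The summed green shoot markers were 533467 to 562932 normalised reads in Col-0 mock, 478671 to 479136 at 10 nM ABA and 408046 to 462293 at 50 nM ABA, with no overlap between the groups. The part of these in the differences was not tested.

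GSTU11 had 20.3 and 26.4 normalised reads in Col-0 mock, 134 and 50.4 at 10 nM ABA and 255, 238 and 103 at 50 nM ABA. GSTU4 had 70.5 and 80.2 in Col-0 mock, 201 and 186 at 10 nM and 356, 303 and 258 at 50 nM. GSTU3 had 4.83 and 2.83 in mock, 11.4 and 16.4 at 10 nM and 16.9, 25.5 and 19.4 at 50 nM. For the 3 genes all libraries with ABA lay above both mock libraries, and for GSTU4 and GSTU3 the 50 nM libraries also lay above the 10 nM ones. The differences at 50 nM were 2.94 (log2) for GSTU11 (7.67-fold, SE 0.51, adjusted p = 0.0046), 2.0 for GSTU4 (3.99-fold, SE 0.26, adjusted p = 0.00028) and 2.17 for GSTU3 (4.51-fold, SE 0.40, adjusted p = 0.0074).

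GSTU5 had 473 and 430.0 normalised reads in Col-0 mock, 574 and 635 at 10 nM ABA and 874, 1091 and 978 at 50 nM ABA. GSTU2 had 73.4 and 66.0 in mock, 95.1 and 127 at 10 nM and 114, 118 and 132 at 50 nM. The GSTU5 libraries separated by dose, while the 10 nM and 50 nM libraries of GSTU2 overlapped. The differences at 50 nM were 1.11 (log2) for GSTU5 (SE 0.17, adjusted p = 0.0016), 0.79 for GSTU2 (SE 0.19, adjusted p = 0.042) and 0.70 for GSTU24 (SE 0.15, adjusted p = 0.026). GSTU17 had 792 and 535 in mock, 743 and 855 at 10 nM and 1899, 3202 and 1121 at 50 nM. Its 50 nM libraries lay above those of both other groups but far apart from each other, and the difference of 1.54 (SE 0.43) missed the threshold (adjusted p = 0.098), while DESeq2 called it (log2 difference 1.64, adjusted p = 0.0066). At 10 nM ABA no member was called in Col-0 by limma or by edgeR, where limma called 0.0285% of all loci. There, 10 of the 35 tested members and 818 of all 21023 loci had an unadjusted p under 0.05 by limma, and DESeq2 called GSTU4 (log2 difference 1.36, adjusted p = 0.014). Of the calls at 50 nM, that of GSTU4 held in all 5 fits that left out a library. GSTU11 and GSTU24 were lost without Col-0 mock replicate 1 or replicate 2 (adjusted p up to 0.10 and 0.27), GSTU3 and GSTU5 without Col-0 mock replicate 2 (0.25 and 0.08), and GSTU2 in every such fit (up to 0.47); GSTU24 was also lost without Col-0 50 nM ABA replicate 1 or replicate 2.

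**Figure D3:**
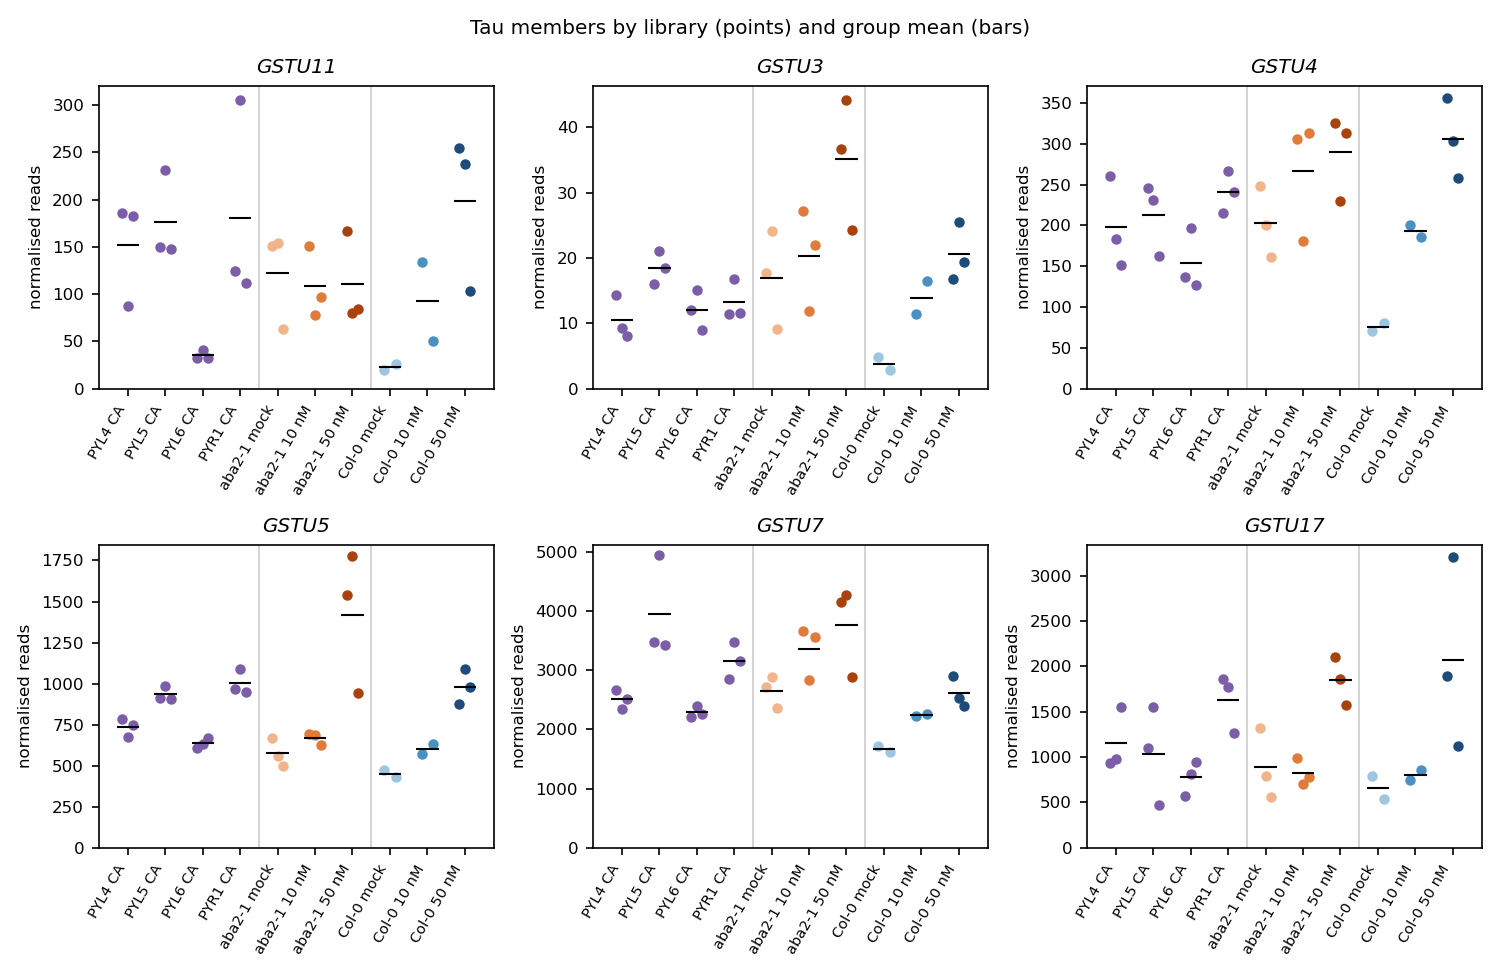
Normalised reads of GSTU11, GSTU3, GSTU4, GSTU5, GSTU7 and GSTU17 in every library (points, on linear axes from 0) for the CA lines, aba2-1 at 3 ABA doses and Col-0 at 3 ABA doses, with bars at group means. GSTU11 lies at 63.5 to 154 in aba2-1 mock and at 20.3 and 26.4 in Col-0 mock.

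In the ABA-deficient mutant the lower dose moved few members. In aba2-1 10 nM ABA against aba2-1 mock 3 tau members rose and 1 phi member fell (11.4%, against 0.975% of all loci called, 0.504% higher and 0.471% lower), with a members' median of −0.04 (log2) and 0 over all loci. GSTF14 had 241, 249.8 and 209.9 normalised reads in aba2-1 mock, 65.9, 56.9 and 61.8 at 10 nM ABA and 40.9, 25.5 and 50.2 at 50 nM ABA. All treated libraries lay far below the mock libraries, and the 50 nM libraries below the 10 nM ones. At 10 nM it fell by 1.91 (log2, SE 0.23, adjusted p = 4.9e-05). GSTU25, GSTU24 and GSTU8 rose by 0.71 (SE 0.13, adjusted p = 0.0065), 0.63 (SE 0.14, adjusted p = 0.023) and 0.45 (SE 0.10, adjusted p = 0.026), with no overlap between the groups. Without the 3 libraries that stood apart the same count of 4 was called, where 1.44% of all loci were. The calls of GSTF14 and GSTU25 held in all 6 fits that left out a library. Those of GSTU24 and GSTU8 were lost without aba2-1 mock replicate 1 or replicate 3 or aba2-1 10 nM ABA replicate 1 (adjusted p up to 0.15 and 0.18), and that of GSTU8 also without aba2-1 10 nM ABA replicate 2.

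Tau genes of the mutant moved both ways under 50 nM ABA, and its called phi genes all fell. In aba2-1 50 nM ABA against aba2-1 mock 6 members rose, all tau, and 10 fell, 4 tau and 6 phi. These 16 are 45.7% of the members, where 24.8% of all loci were called, 12.7% higher and 12.1% lower. The median difference was −0.05 (log2) for tau and −0.82 for phi members, against 0 over all loci. The summed phi reads were 36061 to 55786 in aba2-1 50 nM ABA, against 64430 to 74467 in aba2-1 mock, with no overlap, while the summed tau reads overlapped (33614 to 36223, against 29746 to 34948).

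The tau members that rose were mostly of the chromosome 2 run. GSTU5 had 668, 560.0 and 499 normalised reads in aba2-1 mock, 693, 686 and 627 at 10 nM ABA and 1542, 1777 and 941 at 50 nM ABA. GSTU2 had 86.2, 89.3 and 61.3 in mock, 138, 101 and 132 at 10 nM and 174, 158 and 149 at 50 nM. Only the 50 nM libraries of GSTU5 stood clear of the rest, whereas those of GSTU2 with either dose lay above all 3 mock libraries. The differences at 50 nM were 1.26 (log2) for GSTU5 (SE 0.16, adjusted p = 4.2e-06) and 1.03 for GSTU2 (SE 0.17, adjusted p = 0.00016).

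GSTU3 had 17.6, 24.1 and 9.07 normalised reads in aba2-1 mock, 27.3, 11.8 and 22.1 at 10 nM and 36.7, 44.3 and 24.3 at 50 nM. GSTU7 had 2726, 2894 and 2357 in mock, 3667, 2832 and 3571 at 10 nM and 4159, 4268 and 2882 at 50 nM. GSTU17 had 1317, 796 and 560.4 in mock, 985, 700.3 and 777 at 10 nM and 2108, 1864 and 1579 at 50 nM. The 50 nM libraries lay above the mock libraries for GSTU3 and GSTU17, for GSTU3 by little, and overlapped them for GSTU7. The differences were 1.06 (log2) for GSTU3 (SE 0.35, adjusted p = 0.032), 0.49 for GSTU7 (SE 0.15, adjusted p = 0.023), 1.13 for GSTU17 (SE 0.39, adjusted p = 0.037) and 0.51 for GSTU8 (SE 0.10, adjusted p = 0.0012). GSTU4 and GSTU11, which rose in Col-0 at this dose, did not pass the test here. GSTU4 had 248, 200.3 and 161 in aba2-1 mock, 306, 181 and 313 at 10 nM and 325, 229.8 and 313 at 50 nM, with a difference of 0.51 at 50 nM (SE 0.23, adjusted p = 0.10). GSTU11 had 150.5, 154 and 63.5 in mock, 151, 78.2 and 97.1 at 10 nM and 167, 80.0 and 84.4 at 50 nM, with a difference of −0.13 (SE 0.45, adjusted p = 0.85). Its 3 groups overlapped throughout.

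Of the 9 tested phi members 6 fell. GSTF14 fell by 2.60 at 50 nM (log2, SE 0.23, adjusted p = 2.3e-08), a fold of 0.165. GSTF11 had 102, 59.1 and 65.8 normalised reads in aba2-1 mock, 75.0, 32.0 and 22.1 at 10 nM and 30.7, 11.9 and 32.7 at 50 nM. GSTF7 had 2878, 2875 and 3293 in mock, 2758, 2618 and 2851 at 10 nM and 1713, 1335 and 1709 at 50 nM. For both genes all 50 nM libraries lay below all mock libraries, and the 10 nM libraries of GSTF11 reached from the mock range into the 50 nM range. GSTF11 fell by 1.63 (SE 0.38, adjusted p = 0.0044) and GSTF7 by 0.93 (SE 0.23, adjusted p = 0.0057).

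GSTF2 had 13883, 17173 and 19291 normalised reads in aba2-1 mock, 18138, 21875 and 16944 at 10 nM and 9578, 5669 and 14606 at 50 nM. Replicate 2 was the lowest of the 50 nM libraries, and replicate 3 lay within the mock range. GSTF2 fell by 0.85 (SE 0.22, adjusted p = 0.0099), GSTF6 by 0.82 (SE 0.25, adjusted p = 0.021) and GSTF10 by 0.72 (SE 0.16, adjusted p = 0.0031). The other phi members, GSTF3, GSTF8 and GSTF9, did not pass the test. Of the tau members, GSTU13, GSTU14, GSTU27 and GSTU10 fell, by 0.46 to 0.70. GSTU10 stood at the threshold (adjusted p = 0.0499).

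**Figure D4:**
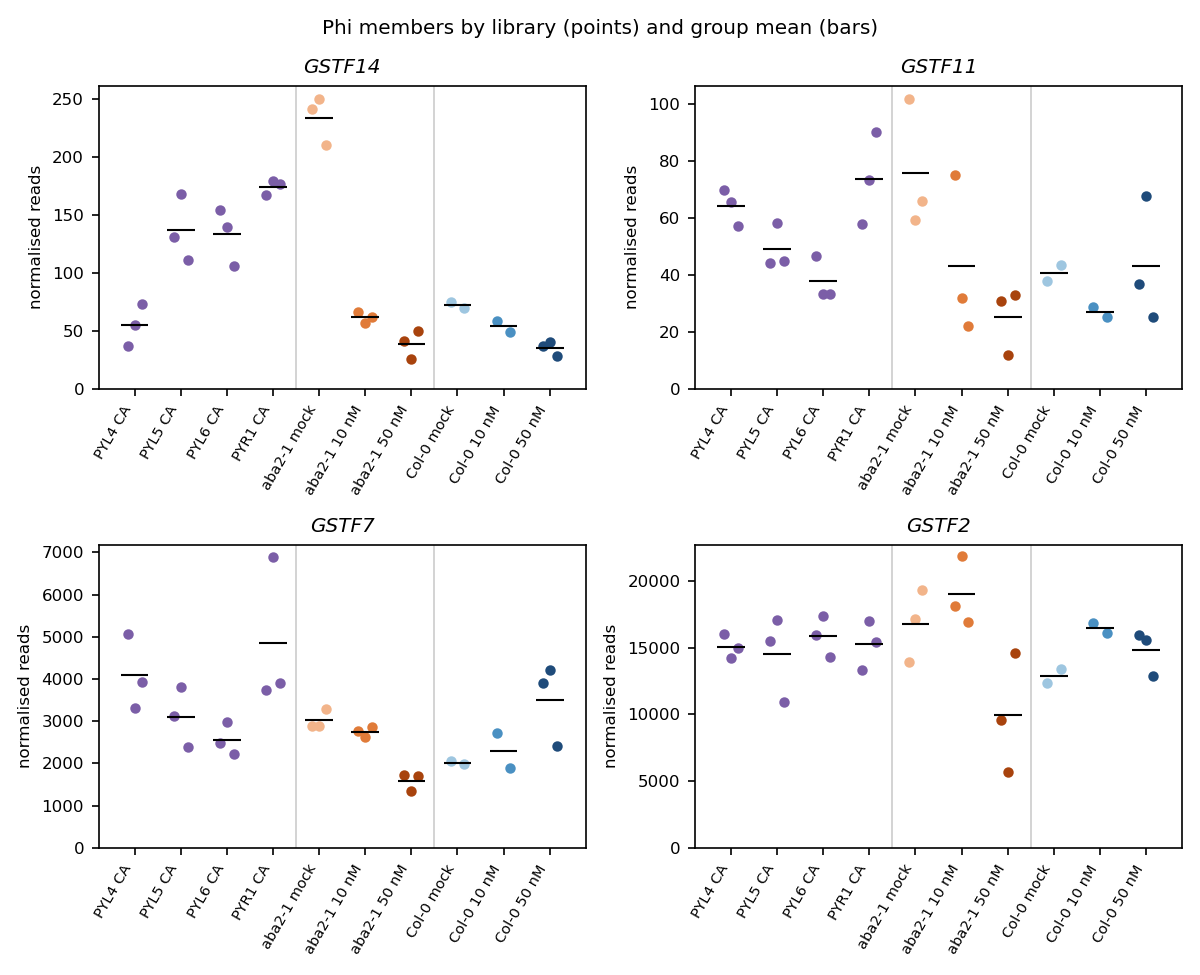
Normalised reads of GSTF14, GSTF11, GSTF7 and GSTF2 in every library (points, on linear axes from 0) for the CA lines, aba2-1 at 3 ABA doses and Col-0 at 3 ABA doses, with bars at group means. GSTF14 lies at 209.9 to 249.8 in aba2-1 mock and at 25.5 to 50.2 in aba2-1 50 nM ABA.

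The 50 nM libraries of aba2-1 varied most of all groups, and other tissue markers moved with the comparison. The summed reads of 14 root markers were 8092 to 9129 in aba2-1 50 nM ABA, against 10495 to 11964 in aba2-1 mock, with no overlap, and those of 9 green shoot markers were 277640 to 578001, against 523387 to 575673. The part of these in the fall of the phi genes was not tested. Without the 3 libraries that stood apart, 10 members were called, 3 higher and 7 lower, where 14.6% of all loci were called. With only these groups in the fit the count was 4, where 2.74% of all loci were called, and with the spread weighted by group it was 5 of 6.71%. The calls of GSTF7, GSTF10, GSTF11, GSTF14, GSTU2, GSTU5, GSTU8, GSTU13 and GSTU27 held in all 6 fits that left out a library. Without aba2-1 50 nM ABA replicate 2 those of GSTF2, GSTF6, GSTU3, GSTU7, GSTU10 and GSTU17 were lost. Without aba2-1 mock replicate 3 those of GSTF2, GSTF6, GSTU3, GSTU7, GSTU14 and GSTU17 were lost. Leaving out aba2-1 mock replicate 1 lost GSTU3 and GSTU10, aba2-1 mock replicate 2 lost GSTU10, GSTU14 and GSTU17, aba2-1 50 nM ABA replicate 1 lost GSTU3, GSTU7, GSTU10 and GSTU17, and its replicate 3 lost GSTU14. Adjusted p-values over these fits reached 0.10 for GSTF2, 0.14 for GSTF6 and GSTU7, 0.18 for GSTU3, 0.16 for GSTU17, 0.23 for GSTU10 and 0.075 for GSTU14. The lowest count over these fits was 10, without either of these libraries.

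Between the doses in the mutant, 1 member rose and 7 fell in aba2-1 50 nM ABA against aba2-1 10 nM ABA (22.9%, against 11.6% of all loci called, 6.08% higher and 5.47% lower). The summed root markers again did not overlap, with 8092 to 9129 at 50 nM ABA, against 9997 to 12111 at 10 nM ABA, and their part in this was not tested. GSTU5 rose by 1.04 (log2, SE 0.16, adjusted p = 0.00023), and GSTF2 fell by 1.03 (SE 0.22, adjusted p = 0.0073). GSTU22, of the chromosome 1 run, had 668, 641 and 699 normalised reads in aba2-1 mock, 809.7, 987 and 852 at 10 nM ABA and 489, 305 and 682 at 50 nM ABA. All 10 nM libraries lay above all others, while replicate 3 at 50 nM lay within the mock range and the other two below it. GSTU22 fell by 0.91 between the doses (SE 0.23, adjusted p = 0.019). GSTU13, GSTU25, GSTU26, GSTF7 and GSTF14 fell by 0.44 to 0.80, GSTF14 at the threshold (adjusted p = 0.0496). The GSTU5 call held in all 6 fits that left out a library. Without aba2-1 50 nM ABA replicate 2 the other 7 were lost (adjusted p over the 6 fits up to 0.30 for GSTU13, 0.17 for GSTU22, 0.067 for GSTU25, 0.18 for GSTU26, 0.057 for GSTF2, 0.19 for GSTF7 and 0.39 for GSTF14). Those of GSTU13, GSTU22, GSTU26, GSTF7 and GSTF14 were also lost without at least 1 library of aba2-1 10 nM ABA, and without aba2-1 50 nM ABA replicate 3 the count rose to 14. Without these libraries of aba2-1 10 nM ABA the count was 3 (replicate 2) or 5 (replicate 1 or 3), and without the 3 libraries that stood apart 4 were called, 1 higher and 3 lower. The share of all loci is not given for the fits with libraries left out, so these counts are not a result about the members.

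The 50 nM responses of the mutant and the wild type were then compared as a difference of differences. It was negative and past the threshold for 5 members and positive for none (14.3%, against 2.05% of all loci called and 1.44% called lower): GSTU4, GSTU11, GSTF6, GSTF7 and GSTF14. The members' median was −0.52 (log2), against −0.02 over all loci. GSTU11 had the largest difference of these, −3.07 (SE 0.68, adjusted p = 0.017), with a response of −0.13 in aba2-1 and 2.94 in Col-0. GSTU11 started from a higher mock level in the mutant, and at 50 nM ABA its libraries overlapped between the genotypes. GSTF7 had −1.69 (SE 0.34, adjusted p = 0.0084), from −0.93 in aba2-1 and 0.76 in Col-0. Its neighbour GSTF6 had −1.42 (SE 0.37, adjusted p = 0.047), from −0.82 in aba2-1 and 0.60 in Col-0. For this neighbouring pair the response was thus below 0 in the mutant and above 0 in the wild type, although the wild-type responses alone did not pass the test (adjusted p = 0.19 for GSTF7 and 0.49 for GSTF6).

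In Col-0, GSTF7 had 2044 and 1980.0 normalised reads in mock, 2714 and 1887 at 10 nM ABA and 3898, 4222 and 2409 at 50 nM ABA, where all 50 nM libraries lay above both mock libraries and replicate 3 well below the other two. GSTF14 had 74.4 and 69.8 in Col-0 mock, 58.0 and 49.3 at 10 nM and 36.7, 40.4 and 28.6 at 50 nM, stepping down with dose without overlap, and its difference of −1.03 at 50 nM (SE 0.26) just missed the threshold (adjusted p = 0.052). It was called lower by DESeq2 (adjusted p = 0.014) and by limma with the spread weighted by group (0.0021), with only the groups compared (0.025) and without the 3 libraries that stood apart (0.011). The response of GSTF14 was below 0 in both, by 2.60 in aba2-1 and 1.03 in Col-0, and the difference was −1.58 (SE 0.34, adjusted p = 0.015). It started from a higher mock level in the mutant, and at 50 nM the libraries overlapped (25.5 to 50.2 in aba2-1, 28.6 to 40.4 in Col-0). GSTU4 had −1.48 (SE 0.35, adjusted p = 0.024), and it too had a higher mock level in the mutant. GSTF11 had 37.7 and 43.4 in Col-0 mock, 28.5 and 25.2 at 10 nM and 36.7, 67.6 and 25.2 at 50 nM, which overlapped, and its difference of −1.61 (SE 0.57) did not pass the test (adjusted p = 0.15). Over the 35 tested members, 12 had a response above 0 in both genotypes, 12 below 0 in aba2-1 and above 0 in Col-0, 2 the reverse, and 9 below 0 in both. This split was not counted over all loci, so it is not a result about the members. GSTU2, GSTU3 and GSTU5 were called higher in both. The 5 calls were lost together without Col-0 mock replicate 2 (adjusted p up to 0.18), and 3 members were called without the 3 libraries that stood apart. Of the 11 fits that left out a library, the call of GSTF7 held in 10, that of GSTF14 in 9, that of GSTU11 in 7 and that of GSTU4 in 6. The call of GSTF6 held in 2 and was lost without either Col-0 mock library, any aba2-1 mock library, or replicate 1 or 2 of either genotype at 50 nM ABA. Without Col-0 mock replicate 1 the calls of GSTU4, GSTU11 and GSTF14 were lost as well, without aba2-1 50 nM ABA replicate 2 or Col-0 50 nM ABA replicate 1 those of GSTU4 and GSTU11, and without aba2-1 mock replicate 1 that of GSTU4. Without aba2-1 mock replicate 1, 3 members were called, and without aba2-1 50 nM ABA replicate 3, 11 were. For the fits with libraries left out the share of all loci is not given, so their counts are not a result about the members.

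**Figure D5:**
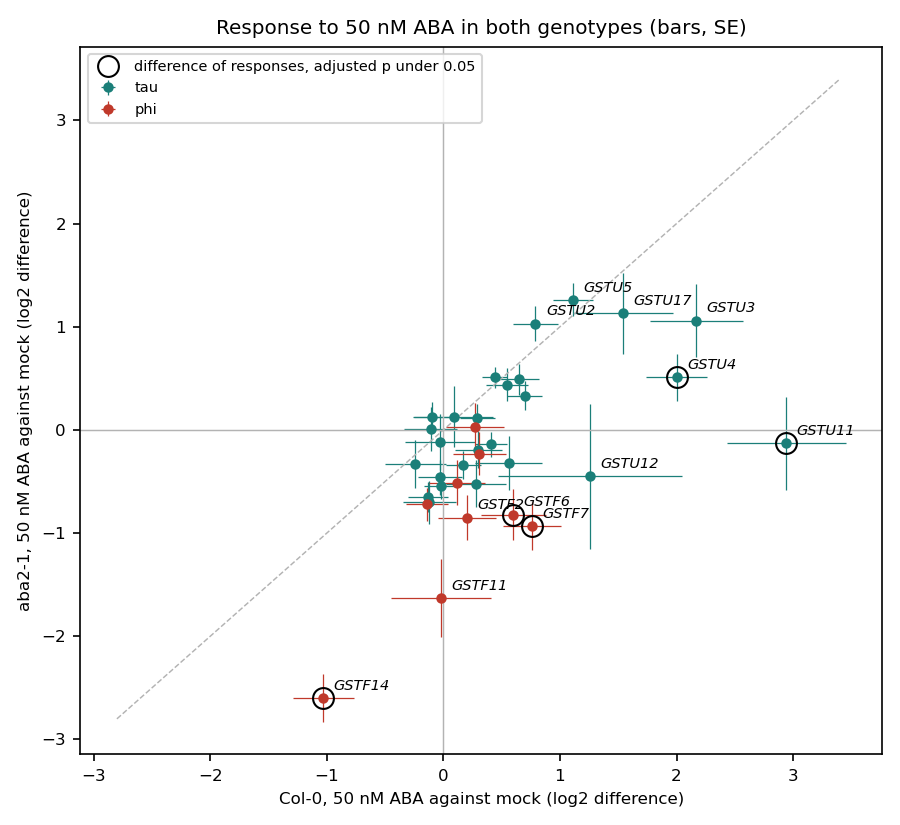
Log2 differences between 50 nM ABA and mock of the 35 tested members, in aba2-1 on the vertical and in Col-0 on the horizontal axis, with bars of 1 standard error and a dashed line where both are equal. The 5 circled members, whose responses differed at adjusted p under 0.05, all lie below the line: GSTU11 at −0.13 in aba2-1 and 2.94 in Col-0, and GSTF14 at −2.60 and −1.03.

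In the CA lines without added ABA, few members differed from aba2-1 mock. In PYL4 CA against aba2-1 mock 1 member was called (2.86%, against 2.48% of all loci called and 0.509% called lower), GSTF14. It had 37.0, 55.3 and 73.3 normalised reads in PYL4 CA, 130.4, 168 and 111 in PYL5 CA, 154, 139.8 and 105 in PYL6 CA and 167, 179.5 and 176 in the libraries labelled PYR1 CA, against the 241, 249.8 and 209.9 of aba2-1 mock. The PYL4 CA libraries were the lowest of these and overlapped neither the other CA lines nor aba2-1 mock, and each of the other 3 lines also lay below aba2-1 mock. GSTF14 fell by 2.11 in PYL4 CA (log2, SE 0.23, adjusted p = 9.6e-06), and this call held in all 6 fits that left out a library. The differences of −0.79 in PYL5 CA, −0.82 in PYL6 CA and −0.42 in the libraries labelled PYR1 CA did not pass the test (adjusted p = 0.16, 0.39 and 0.53).

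In the libraries labelled PYR1 CA against aba2-1 mock 1 member was called (2.86%, against 1.15% of all loci called and 1.04% called higher), GSTU5, which had 967, 1090.0 and 947 normalised reads in them, against 668, 560.0 and 499 in aba2-1 mock. The groups did not overlap, and it rose by 0.80 (SE 0.16, adjusted p = 0.013). The summed green shoot markers did not overlap either (482171 to 486601, against 523387 to 575673 in aba2-1 mock), and their part in this was not tested. The call was lost without aba2-1 mock replicate 2 or PYR1 CA replicate 2 (adjusted p up to 0.12). In PYL5 CA no member was called by limma or edgeR (0.157% of all loci by limma), and GSTU5, GSTU7 and GSTF14 were called by DESeq2. By limma 6 of the 35 tested members and 3312 of all 21023 loci had an unadjusted p under 0.05, similar shares. Without the 3 libraries that stood apart 6 members were called in PYL5 CA, where 20.2% of all loci were. In PYL6 CA no member was called by limma or edgeR (0.119% of all loci by limma), and GSTU11 and GSTF14 were called by DESeq2. Here 7 of the 35 tested members and 896 of all 21023 loci had an unadjusted p under 0.05 by limma.

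Against the wild type, 3 of the CA lines had higher tau transcripts, GSTU4, GSTU5 and GSTU11 among them, and no member was called lower. GSTU3, GSTU4, GSTU11 and GSTF14 were also called higher than in Col-0 mock in aba2-1 mock, the mutant without a CA form. By limma no CA line had a call for GSTU4 or GSTU11 against aba2-1 mock. The part of the genetic background in these differences was not tested. In PYL4 CA against Col-0 mock 6 members rose (17.1%, against 1.44% of all loci called and 1.22% called higher), GSTU4, GSTU5, GSTU8, GSTU11, GSTU24 and GSTF7. In PYL5 CA against Col-0 mock 6 rose (17.1%, against 1.59% called and 1.01% called higher), GSTU3, GSTU4, GSTU5, GSTU7, GSTU11 and GSTU24. In the libraries labelled PYR1 CA against Col-0 mock 10 rose (28.6%, against 2.81% called and 2.11% called higher), GSTU3, GSTU4, GSTU5, GSTU7, GSTU11, GSTU19, GSTU24, GSTF7, GSTF8 and GSTF14. In PYL6 CA against Col-0 mock no member was called by limma or edgeR (0.157% of all loci by limma), and GSTF14 was called by DESeq2 (log2 difference 0.89, adjusted p = 0.048). For PYL6 CA, 6 of the 35 tested members and 1503 of all 21023 loci had an unadjusted p under 0.05 by limma. These comparisons share the Col-0 mock libraries with those above, so the recurrence of members is not independent support. The summed root markers were 10946 to 12737 in PYL4 CA, 10624 to 11533 in PYL6 CA and 10325 to 11753 in the libraries labelled PYR1 CA, against 9731 to 10133 in Col-0 mock, with no overlap, and overlapped it in PYL5 CA (8981 to 12121). The summed green shoot markers were 492741 to 529140 in PYL4 CA and 482171 to 486601 in the libraries labelled PYR1 CA, against 533467 to 562932 in Col-0 mock, with no overlap, while PYL5 CA (319971 to 672120) and PYL6 CA (511762 to 539165) overlapped it. The part of these in the differences was not tested. Without the 3 libraries that stood apart 12 members were called in PYL5 CA, where 20.6% of all loci were.

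GSTU11 had 186, 87.1 and 182 normalised reads in PYL4 CA, 150.2, 231 and 147 in PYL5 CA, 32.5, 40.8 and 32.2 in PYL6 CA and 124, 306 and 112 in the libraries labelled PYR1 CA, against 20.3 and 26.4 in Col-0 mock. Every CA library lay above both Col-0 mock libraries, but those of PYL6 CA by little and below all libraries of the other 3 lines. The differences were 2.58 (log2) in PYL4 CA (SE 0.51, adjusted p = 0.012), 2.84 in PYL5 CA (adjusted p = 0.0044), 2.76 in the libraries labelled PYR1 CA (adjusted p = 0.0040) and 0.57 in PYL6 CA (adjusted p = 0.95). The 3 calls were lost without either Col-0 mock library (adjusted p up to 0.16, 0.11 and 0.077).

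GSTU4 had 261, 183 and 151 normalised reads in PYL4 CA, 246, 231 and 162 in PYL5 CA, 137, 196 and 127 in PYL6 CA and 215, 267 and 240.4 in the libraries labelled PYR1 CA, against 70.5 and 80.2 in Col-0 mock, with all CA libraries above both. GSTU5 had 783, 677 and 750.4 in PYL4 CA, 910.4, 986 and 906 in PYL5 CA, 608, 633 and 666 in PYL6 CA and 967, 1090.0 and 947 in those labelled PYR1 CA, against 473 and 430.0 in Col-0 mock. Its PYL6 CA libraries were the lowest of the CA libraries and still above Col-0 mock. GSTU7 had 2666, 2352 and 2508 in PYL4 CA, 3479, 4954 and 3436 in PYL5 CA, 2210.0, 2396 and 2262 in PYL6 CA and 2849, 3474 and 3162 in those labelled PYR1 CA, against 1720.0 and 1612 in Col-0 mock. All CA libraries again lay above Col-0 mock, PYL6 CA nearest to it, and PYL5 CA replicate 2 was the highest library. GSTU7 rose by 1.23 in PYL5 CA (SE 0.17, adjusted p = 0.00031), which held in all 5 fits that left out a library. GSTU4 and GSTU5 rose in the libraries labelled PYR1 CA by 1.66 (SE 0.26, adjusted p = 0.0011) and 1.15 (SE 0.17, adjusted p = 0.00087), and both held likewise.

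GSTF7 had 5066, 3321 and 3924 normalised reads in PYL4 CA, 3128, 3812 and 2386 in PYL5 CA, 2481, 2977 and 2214 in PYL6 CA and 3742, 6895 and 3905 in those labelled PYR1 CA, against 2044 and 1980.0 in Col-0 mock, with a single high library under the label PYR1 CA. It rose by 1.01 in PYL4 CA (SE 0.25, adjusted p = 0.046) and by 1.21 in the libraries labelled PYR1 CA (SE 0.25, adjusted p = 0.0097). Both calls were lost without either Col-0 mock library (adjusted p up to 0.40 and 0.16), that in PYL4 CA also without PYL4 CA replicate 1 or 3 and that under the label PYR1 CA also without PYR1 CA replicate 2. GSTU8, GSTU19 and GSTF8 were each called in a single line against Col-0 mock, with differences of 0.45 in PYL4 CA for GSTU8 (adjusted p = 0.048) and of 0.52 and 0.88 for GSTU19 and GSTF8 in the libraries labelled PYR1 CA (adjusted p = 0.040 and 0.036). Of the 5 fits that left out a library, the calls of GSTU8 and GSTF8 held in none (adjusted p up to 0.33 and 0.30) and that of GSTU19 in 1 (up to 0.36). Of the 22 calls of a member in a CA line against Col-0 mock, 3 held in all 5 such fits. Leaving out Col-0 mock replicate 2 brought the count for PYR1 CA to 2, replicate 1 to 3 and PYR1 CA replicate 2 to 6, and leaving out either Col-0 mock library brought that for PYL5 CA to 2. For PYL4 CA it came to 0 without either Col-0 mock library or without PYL4 CA replicate 1.

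Among the 4 CA lines, the F test called 5 members (14.3%, against 3.36% of all loci): GSTU5, GSTU7, GSTU8, GSTU11 and GSTF14. GSTF14 had the smallest p of these (adjusted p = 6e-04) and GSTU8 the next (adjusted p = 0.0064). GSTU8 had 1513, 1462 and 1326 normalised reads in PYL4 CA, 1196, 1228 and 1086 in PYL5 CA, 978, 982 and 852 in PYL6 CA and 1043, 1253 and 1014 in those labelled PYR1 CA. PYL4 CA was highest and PYL6 CA lowest, with no overlap of either with the other lines. Over the 35 tested members, PYL6 CA had the lowest mean of the 4 lines for 22 and the highest for 3, while the libraries labelled PYR1 CA had the highest mean for 16 and the lowest for 2. The same order was not counted over all loci, so it is not a result about the members. The F test called 3 members without PYL6 CA replicate 1 or replicate 3 and 9 without PYL5 CA replicate 2, and the share of all loci is not given for these fits. Without the 3 libraries that stood apart it called 15 members, where 20.4% of all loci were called.

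The remaining 11 tested members passed in no pairwise comparison: GSTU1, GSTU6, GSTU9, GSTU12, GSTU16, GSTU18, GSTU20, GSTU23, GSTU28, GSTF3 and GSTF9. GSTU6, from the run in which GSTU2 to GSTU5 and GSTU7 were called, had 103.7 to 204.7 normalised reads over all libraries and no difference beyond 0.30 (log2) in either direction. GSTU20 and GSTF9, abundant genes, ranged over 1255 to 2884 and over 6899 to 17353. GSTU12 had large differences with large errors, the largest −2.24 (SE 0.70, adjusted p = 0.19) in aba2-1 10 nM ABA against aba2-1 mock, where its libraries had 7.95, 7.11 and 0, against 21.8, 13.3 and 22.7. A p that misses the threshold does not show that these genes did not differ.

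Other genes of the pathways around the family were followed as fixed lists. For the lists here and below, 1.01% of all loci were called in Col-0 50 nM ABA against Col-0 mock. In aba2-1 mock against Col-0 mock 0.59% were called. Among 17 tested of 19 genes for glutathione synthesis, reduction, transport and breakdown, none was called in Col-0 50 nM ABA against Col-0 mock or in aba2-1 mock against Col-0 mock. In aba2-1 50 nM ABA against aba2-1 mock 2 rose and 3 fell, among them GSH2, glutathione synthetase (−0.78, SE 0.17, adjusted p = 0.0023), and PCS1, phytochelatin synthase (−0.75, SE 0.19, adjusted p = 0.0071). Of all loci 24.8% were called there (12.7% higher and 12.1% lower), near the share of this list, so the count is not a result about it. ABCC3 and ABCC2, transporters of glutathione conjugates, rose in PYL4 CA over Col-0 mock by 1.47 (SE 0.24, adjusted p = 0.0044) and 0.73 (SE 0.14, adjusted p = 0.0091), and in the libraries labelled PYR1 CA by 1.20 (SE 0.24, adjusted p = 0.0074) and 0.80 (SE 0.14, adjusted p = 0.0020). Of 14 tested of 15 transferases of other classes and further phi loci, none was called in those comparisons with Col-0 mock, and in aba2-1 50 nM ABA against aba2-1 mock 3 rose, led by TCHQD (0.77, SE 0.14, adjusted p = 0.00045) and GSTZ1 (0.78, SE 0.15, adjusted p = 0.00088), and 2 fell. These last counts stand beside the same 24.8% of all loci.

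Of 15 genes of the TGA and SCL14 xenobiotic response, which includes cytochromes P450 and glucosyltransferases, 2 rose in Col-0 50 nM ABA against Col-0 mock, the cytochromes P450 CYP81D11 (1.1, SE 0.21, adjusted p = 0.011) and CYP81D8 (1.62, SE 0.39, adjusted p = 0.045). In aba2-1 50 nM ABA against aba2-1 mock 2 rose and 1 fell, CYP81D11 up by 0.92 (SE 0.19, adjusted p = 0.0016) and the exporter DTX1 down by 1.26 (SE 0.28, adjusted p = 0.0032). The 24.8% of all loci called there is near the share of this list, so the count is not a result about it. UGT73B5, a glucosyltransferase, was the 1 gene called in aba2-1 mock against Col-0 mock (1.37, SE 0.29, adjusted p = 0.021). Against Col-0 mock, 2 of the list rose in PYL4 CA, 4 in PYL5 CA, none in PYL6 CA and 4 in the libraries labelled PYR1 CA. Of all loci 1.22% were called higher in PYL4 CA, 1.01% in PYL5 CA and 2.11% under the label PYR1 CA, and 0.157% were called in PYL6 CA.

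Of 10 aliphatic glucosinolate genes, the pathway of GSTF11 and GSTU20, 5 fell and none rose in aba2-1 50 nM ABA against aba2-1 mock, led by the regulator MYB28 (−0.99, SE 0.16, adjusted p = 1e-04) and by CYP79F2 (−1.25, SE 0.23, adjusted p = 0.00049). Of all loci 12.1% were called lower and 12.7% higher there. None of the 10 was called in Col-0 50 nM ABA against Col-0 mock, and 2 had a difference between the 50 nM responses (2.05% of all loci called), CYP79F2 (−1.67, SE 0.34, adjusted p = 0.0098) and MYB28 (−1.09, SE 0.23, adjusted p = 0.014). Of 8 genes for the synthesis of indole glucosinolates, in whose metabolism GSTF9, GSTF10 and GSTU13 act, 1 rose and 2 fell in aba2-1 50 nM ABA against aba2-1 mock (24.8% of all loci called), GGP1 (−1.0, SE 0.24, adjusted p = 0.0050) and CYP83B1 (−0.66, SE 0.18, adjusted p = 0.013). In PYL4 CA over aba2-1 mock CYP79B2 rose by 0.73 (SE 0.14, adjusted p = 0.0059). Of 7 tested of 10 anthocyanin genes, 1 call was made in the 15 comparisons, the regulator TT8, higher in aba2-1 50 nM ABA against aba2-1 10 nM ABA (2.69, SE 0.59, adjusted p = 0.0079).

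As a check of the treatments, 11 ABA-responsive genes were followed. All 11 rose in aba2-1 50 nM ABA against aba2-1 mock (median 3.71, log2) and 6 in Col-0 50 nM ABA against Col-0 mock (median 2.54). Their summed reads were 16215 to 33529 in aba2-1 50 nM ABA, against 2237 to 3302 in aba2-1 mock, and 6848 to 7919 in Col-0 50 nM ABA, against 3285 to 3586 in Col-0 mock. Against aba2-1 mock, 7 rose in PYL4 CA, 1 in PYL5 CA, 2 in PYL6 CA and 6 in the libraries labelled PYR1 CA. Of the root markers, 2 rose and 3 fell in aba2-1 50 nM ABA against aba2-1 mock, and of the green shoot markers 3 fell, where 24.8% of all loci were called.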

How the data were processed

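The deposited table held 1 value per locus and sample (28 columns); per the submitters' processing notes, Trimmomatic 0.38, Salmon 1.3.0, edgeR 3.28.0 and TAIR10 were used by the authors. Its values are read counts divided by 1 size factor per sample, a normalised signal made by the authors: within 0.01, every value was a whole multiple of a sample's step, which gave back whole reads. These counts, as deposited values divided by the step, fed edgeR 4.0.16 and DESeq2 1.42.0 as alternatives. The 5 rows without a locus, 0.002% to 0.183% of the reads of a library, were left out. Loci with a value of at least 10 in at least 2 samples were tested with limma 3.58.1 (R 4.3.3) on log2(value + 1), with trend and robust settings, all 28 samples in 1 fit, and Benjamini-Hochberg adjustment within each comparison at 0.05. Positions and upstream windows came from RefSeq TAIR10.1, which held 23457 of the 23681 loci. The upstream window of GSTF6 is not reported here. Chi-square tests found that no replicate pair agreed within sampling noise. Members and gene lists were chosen with earlier results of these data known. Members with values in every sample are the 12 with the largest called differences; genes outside the family are the 1 or 2 of a list with the smallest p, and members called only under an alternative, further members given by sample and the windows printed were picked after values were seen. Alternatives were another pseudocount, no filter, TMM scaling, group weights, a replicate block, only the groups compared, single libraries left out and, chosen after seeing the data, 3 libraries left out together. The fits were checked on simulated data.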

Additional observations from a re-analysis of the deposited data

Results flagged for a closer look

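The response to 50 nM ABA differed between aba2-1 and Col-0 for 5 members by a test of the difference itself (limma, Benjamini-Hochberg adjusted p under 0.05). In aba2-1 relative to Col-0 the log2 response was lower by a difference of −3.07 for GSTU11, −1.69 for GSTF7, −1.58 for GSTF14, −1.48 for GSTU4 and −1.42 for GSTF6. All 3 phi members of these lay below mock in the mutant, and GSTF14 also in the wild type. GSTU4, GSTU11 and GSTF14 were also called higher in aba2-1 mock than in Col-0 mock, and that mock difference enters the difference of responses. None of the 5 was called without Col-0 mock replicate 2, and of the 11 fits that left out a library the call of GSTF6 held in 2.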

How the results depend on the processing

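No called difference changed its direction under any alternative. Of the 67 calls of a member in a comparison, 57 held by edgeR, 62 by DESeq2, 63 with a pseudocount of 5, 63 without the filter, 64 with TMM scaling, 40 with the spread weighted by group, 35 with only the groups compared and 53 without the 3 libraries that stood apart; of 395 such calls with a library left out, 247 held. The cause was not tested for the counts that follow. The share of all loci called moved between settings as well and is not given beside these counts. A change in a count is therefore not a result about the members. Calls by DESeq2 alone are likewise given without the share of all loci. In aba2-1 mock against Col-0 mock the count was 2 by edgeR and with a pseudocount of 5, 8 with only the groups compared, 10 with group weights and 7 without the 3 libraries. In Col-0 10 nM ABA against mock it was 1 by DESeq2, 9 with only the groups compared and 7 with weights, and at 50 nM ABA 11 by DESeq2, 11 with only the groups, 12 with weights and 10 without the 3 libraries. In aba2-1 50 nM ABA it was 4 with only the groups compared, 5 with weights and 10 without the 3 libraries against mock, and 0, 1 and 4 against 10 nM ABA. The difference between the 50 nM responses gave 1, 0 and 3. Against aba2-1 mock, PYL4 CA gave 3 by DESeq2, 4 with only the groups, 6 with weights and 5 without the 3 libraries, PYL5 CA gave 3 by DESeq2 and 6 without them, PYL6 CA gave 2 by DESeq2 and 1 with weights, and PYR1 CA gave 2 with weights. Against Col-0 mock, PYL4 CA gave 10 by DESeq2, 12 with only the groups, 17 with weights and 10 without the 3 libraries, PYL5 CA gave 10, 1, 2 and 12, PYL6 CA gave 1, 5 and 6 by the first 3, and PYR1 CA gave 17 with weights. The F test among the CA lines gave 10 by DESeq2, 16 with weights and 15 without the 3 libraries. With single libraries left out the counts ranged over 1 to 4 for aba2-1 mock against Col-0 mock, 1 to 6 for Col-0 50 nM ABA, 2 to 4 for aba2-1 10 nM ABA, 10 to 20 for aba2-1 50 nM ABA against mock and 1 to 14 against 10 nM ABA, 0 to 11 for the difference of responses, 1 to 2 for PYL4 CA and 0 to 1 for PYR1 CA against aba2-1 mock, 0 to 5, 2 to 7 and 2 to 9 for PYL4, PYL5 and PYR1 CA against Col-0 mock, and 3 to 9 for the F test among CA lines. Replicate numbers did not pair the samples: libraries with the same number in different groups had correlated deviations in 18 of 117 pairs (r from −0.59 to 0.25). With the replicate number as a block the count for PYL4 CA against aba2-1 mock was 2 and 65 of the 67 calls held. TMM scaling moved the median of all loci by less than 0.1 (log2). Depth limits GSTU3, GSTU12, GSTU28, GSTU21 and GSTF12, which had the fewest reads, and counting error is only part of the spread.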
